A study of Bos taurus with 8 samples.

Results

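Integrins are the cell surface receptors that hold cells to the extracellular matrix, and 10 of their subunit genes were followed here in cattle, in stem-like cell lines derived from embryos (eSLCs) and in somatic cells (SC). The subunits were ITGA2, ITGA5, ITGA6, ITGAV, ITGB1, ITGB3, ITGB4, ITGB5, ITGB6 and ITGB8. They were chosen by gene name, though with earlier results of these data known, and were read through the RefSeq accession of each probe. All 10 had a probe among the 12602 named genes, with 25 probes in all. Total RNA of 8 cell samples was hybridized, each to its own one-colour Agilent bovine 44K array, in which the brightness of a spot measures the amount of the transcript.

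The eSLC lines came from blastocysts of 3 origins. Lines I2 (passage 35) and I9 (passage 30) came from in vitro produced (IVP) embryos, N2 (passage 36) and N7 (passage 30) from nuclear transfer (NT) embryos, and P1 (passage 31) and P4 (passage 36) from parthenogenetic (PA) embryos, in which the oocyte develops without sperm. The oocytes were of HanWoo, the Korean native cattle. All 6 lines grew on inactivated murine STO fibroblasts in serum-free medium with PD184352 at 0.8 µM, SU5402 at 2 µM and CHIR99021 at 3 µM, which inhibit MEK, the FGF receptor and GSK3. SC samples were taken at passages 5 and 10 and grew with 10% serum and without the inhibitors. Cell type, passage, feeder and medium therefore changed together, and their parts in any difference from SC cannot be told apart. The tissue of the SC samples, and whether the SC samples were separate cultures, is not given in the sources used here, so the p-values measure the spread between these samples only.

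Each integrin is a pair of an alpha and a beta subunit, and the pair decides which ligand is bound. ITGB1 joins many alpha subunits, among them ITGA5 as the fibronectin receptor, ITGA2 as a collagen receptor and ITGA6 as a laminin receptor. ITGAV pairs with ITGB1, ITGB3, ITGB5, ITGB6 or ITGB8 in receptors for matrix proteins that carry the RGD motif, and the pairs with ITGB6 and ITGB8 release active TGF-beta from its latent complex. ITGB4 pairs with ITGA6 alone, in the hemidesmosomes that fix epithelial cells to laminin. In ruminants, integrins on the trophectoderm, the outer cell layer of the blastocyst, take part in the attachment of the conceptus to the uterus.

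Between 71.2% and 76.7% of the spots of an array were well above background. Signals are given after background subtraction, scaled so that the 75th percentile of each array is 1000, and one probe cannot be compared with another in level. Values below 13.3, the lowest signal that every array could measure, were set to 13.3 in the tests. The correlation of log2 signals over tested genes was 0.946 to 0.994 between eSLC lines, 0.763 to 0.798 between eSLCs and SC and 0.993 between the SC arrays. The closest pair of all 8 arrays was I9 with N2, lines of different origin on different slides, so results are also given without them. The trophectoderm markers summed to between 506772 and 1448700 on the eSLC arrays and to 19383 and 20129 on the SC arrays, where CDX2, ELF5 and PAG2 were not well above background. The fibroblast markers summed to between 5702 and 10937 in eSLCs and to 669382 and 824938 in SC. Each sum is set mostly by its probes of highest signal. The labels name eSLCs as stem-like, but the marker lists separate the samples as cells with trophectoderm and with fibroblast transcripts, and the part of this difference in the integrin results was not tested.

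To find which subunits differed between eSLCs and SC, the mean of the 3 origins was set against SC. A gene was called when limma gave an adjusted p under 0.05 and a difference of at least 2-fold. Of the 7 subunits well above background on all 8 arrays, 4 were lower in eSLCs (ITGAV, ITGB1, ITGB3 and ITGB5) and 0 were higher. Among the 9363 genes measured on all 8 arrays, 14.1% were called lower and 18.9% higher. The median log2 difference was -1.002 for these subunits and 0.24 for these genes. The arrays of eSLCs and SC did not overlap for the same 4 subunits, and 22.5% of these genes lay wholly below SC and 35.1% wholly above it. ITGB8 was called lower too, which made 5 of 9 tested (15.7% of all 10956 genes tested were lower and 19.7% higher), but it entered the test only through SC, where it was high. ITGB6 entered only through the NT-eSLCs. ITGA2 was not tested because it was not well above background on both arrays of any condition. In bulk RNA, fewer cells that carry a transcript and less of it per cell cannot be told apart.

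**Figure D1:**
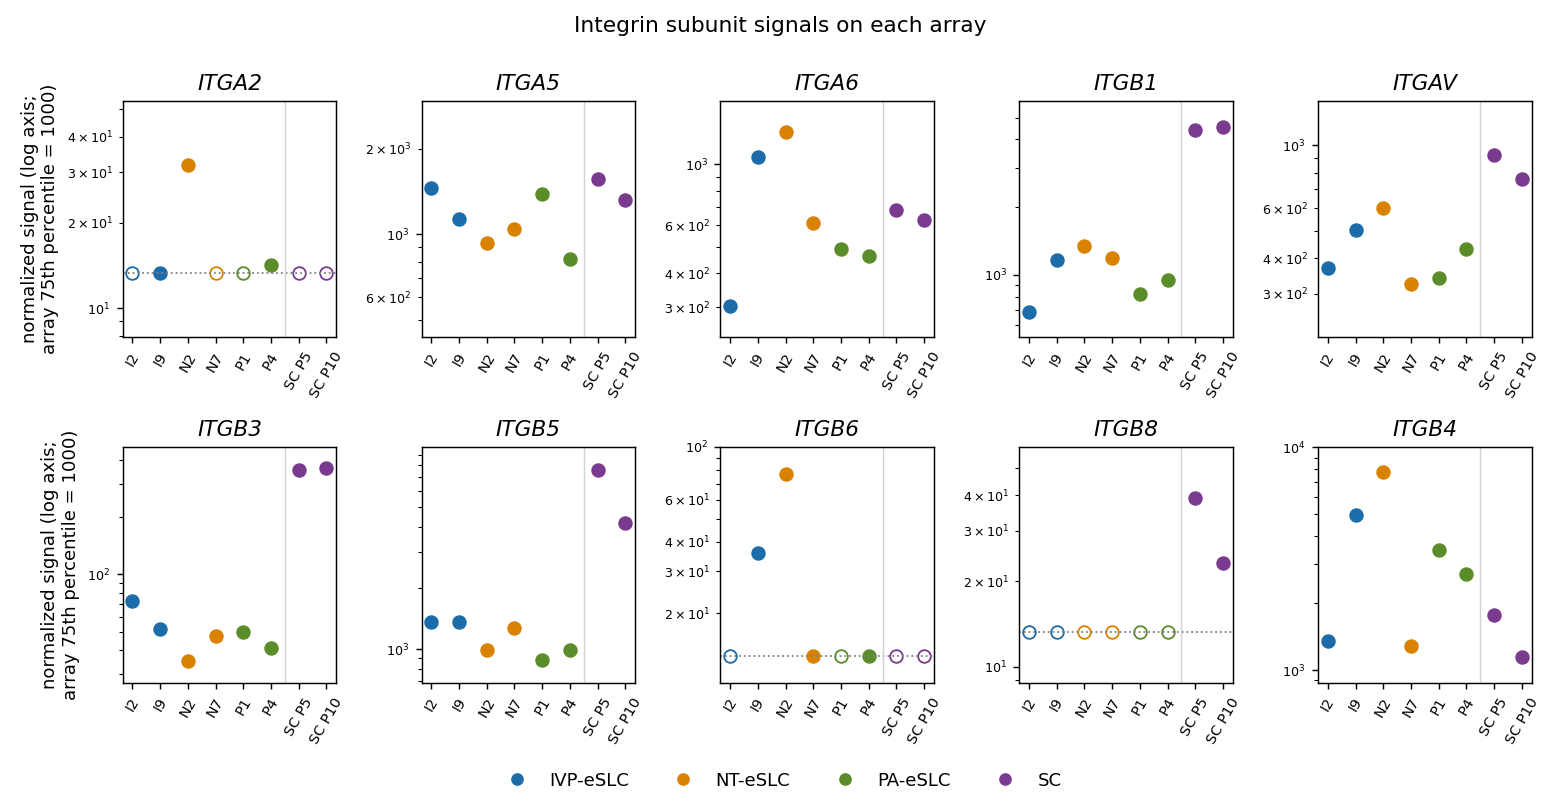
Normalized signal of each integrin subunit (log axis, array 75th percentile = 1000, own scale per panel) on the 6 eSLC arrays and the 2 SC arrays. Filled points were well above background, open points were not, and the dotted line marks the 13.3 at which lower values are drawn. For ITGB1, ITGB3 and ITGB5 the SC points lie above every eSLC point, whereas for ITGA6 the eSLC points lie on both sides of SC and for ITGB4 those of I2 and N7 lie between the SC points.

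ITGB1, the beta subunit shared by the receptors for fibronectin, collagen and laminin, was lower in every eSLC line than in SC. Its signal was 688 in I2, 1171 in I9, 1350 in N2, 1184 in N7, 822 in P1 and 949 in P4, against 4399 (SC P5) and 4557 (SC P10). The lowest SC array was 3.26-fold above the highest eSLC line. The log2 difference was -2.16 (SE 0.234, 4.47-fold, adjusted p = 0.000879 by limma), and the other probe gave -1.98.

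ITGA5, the fibronectin-binding partner of ITGB1, was not called. At its brightest probe the signal was 1451 in I2, 1128 in I9, 929 in N2, 1045 in N7, 1381 in P1 and 816 in P4, against 1565 and 1320 in SC P5 and SC P10. The groups overlapped, because I2 and P1 lay between the SC arrays. The log2 difference of -0.38 (95% interval -0.99 to 0.23) did not pass the test (adjusted p = 0.249 by limma). At its other probe every eSLC line (29.0 to 83.7) lay below both SC arrays (83.9 and 88.5) and the log2 difference of -0.89 did not pass the test either (adjusted p = 0.149 by limma).

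ITGA6, the laminin-binding partner of ITGB1 and ITGB4, ran at its brightest probe from 303 in I2 to 1067 in I9 and 1313 in N2, with 610 in N7, 490 in P1 and 463 in P4. SC P5 had 678 and SC P10 had 624. At this probe I9 and N2 were above both SC arrays and the other 4 lines were below them. The log2 difference was -0.06 (95% interval -1.34 to 1.22, adjusted p = 0.931 by limma), with no direction that held, since it was 0.24 without I2 and 0.12 without N7. The other 2 probes gave -0.24 and -0.32, neither called, and at one of them all 6 lines (402 to 647) lay below both SC arrays (664 and 674).

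ITGA2, the collagen-binding subunit, was near background on every array. It was well above background in I9 (12.8), N2 (31.8) and P4 (14.1), and in neither SC array. N2 had the highest signal, and no fold against SC is given because 3 of the 6 eSLC lines were not measured either.

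ITGAV, the alpha subunit of the RGD-binding and TGF-beta-activating pairs, was lower in all 6 lines. Its signal was 370 in I2, 504 in I9, 604 in N2, 327 in N7, 341 in P1 and 433 in P4, against 926 (SC P5) and 761 (SC P10). The gap between the groups was 1.26-fold. The log2 difference of -1.002 (SE 0.289, adjusted p = 0.0326 by limma) lay just past the 2-fold limit. It was called in 12 of 23 alternative settings and in 2 of the 8 fits that left out one array, those without I9 and without N2. Its other 2 probes were called in the same direction, at -1.45 and -1.40.

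ITGB3, the partner of ITGAV in a receptor for osteopontin and vitronectin, was lower in all 6 lines. Its signal was 72.3 in I2, 51.7 in I9, 34.9 in N2, 47.1 in N7, 49.5 in P1 and 41.1 in P4, against 356.8 (SC P5) and 363.3 (SC P10). Every eSLC line was at least 4.93-fold below the lowest SC array. The log2 difference was -2.90 (SE 0.212, 7.47-fold, adjusted p = 0.000194 by limma), and the other 2 probes were called in the same direction. At one of them I9 and N2 lay below 13.3, and at the other none of the 6 lines was well above background while SC read 56.5 and 59.4, so their fitted values, -3.69 and -2.12, are limits set by the floor.

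ITGB5, the partner of ITGAV in a vitronectin receptor, was lower in eSLCs to a similar degree on each array. Its signal was 1352 in I2, 1363 in I9, 984 in N2, 1264 in N7, 888 in P1 and 986 in P4. SC P5 had 7614 and SC P10 had 4183, so the SC arrays differed 1.82-fold from each other and the 6 lines at most 1.53-fold. The log2 difference was -2.33 (SE 0.260, 5.02-fold, adjusted p = 0.000985 by limma), with -2.68 and -2.48 at the other 2 probes, both called.

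ITGB8, which with ITGAV activates latent TGF-beta, was measured in SC only. Both SC arrays were well above background, with 39.3 in SC P5 and 23.1 in SC P10, whereas the 6 lines lay between -2.62 and 4.72 and were not. SC was at least 3.01-fold higher than the eSLCs, taking for each eSLC array the lowest signal it could measure (adjusted p = 0.00734 by limma for the fitted difference). With the floor doubled the fitted log2 difference was -0.28 and the call was lost, and without SC P5 it was -0.80 and lost too.

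ITGB6, the other TGF-beta-activating partner of ITGAV and an epithelial subunit, was measured in some eSLC lines and in neither SC array. It was well above background in I9 (35.7), N2 (77.2), P4 (12.4) and N7 (8.34), and not in I2 (6.39), P1 (11.4), SC P5 (3.73) or SC P10 (3.86). Only I9 and N2 passed 13.3, and the values below it have no order. The log2 difference of 0.66 (95% interval -1.06 to 2.38, adjusted p = 0.468 by limma) did not pass the test, and it was 0 without I9 and N2.

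ITGB4, the hemidesmosome subunit, depended on the probe. At its brightest probe the signal was 1346 in I2, 4978 in I9, 7764 in N2, 1278 in N7, 3445 in P1 and 2706 in P4, against 1768 (SC P5) and 1140 (SC P10). The groups overlapped through I2 and N7, and the log2 difference of 1.04 (95% interval -0.90 to 2.98) did not pass the test (adjusted p = 0.318 by limma). It was 0.29 without I9 and N2.

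Another ITGB4 probe separated the groups. It read 243.5 in I2, 199.5 in I9, 141.7 in N2, 57.1 in N7, 241.6 in P1 and 105.1 in P4, against 37.7 and 22.8 in SC. Its log2 difference was 2.32 (SE 0.478, adjusted p = 0.0100 by limma). I2 was the highest line at this probe and among the lowest at the brightest one, so the probes disagree on the order of the lines as well as on the call. The 3 remaining probes that could be tested gave 0.21 to 0.92, none of them called. At the probe with 0.21, only I9 (17.7) and N2 (24.3) passed the floor, so this value is limited by the floor.

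**Figure D2:**
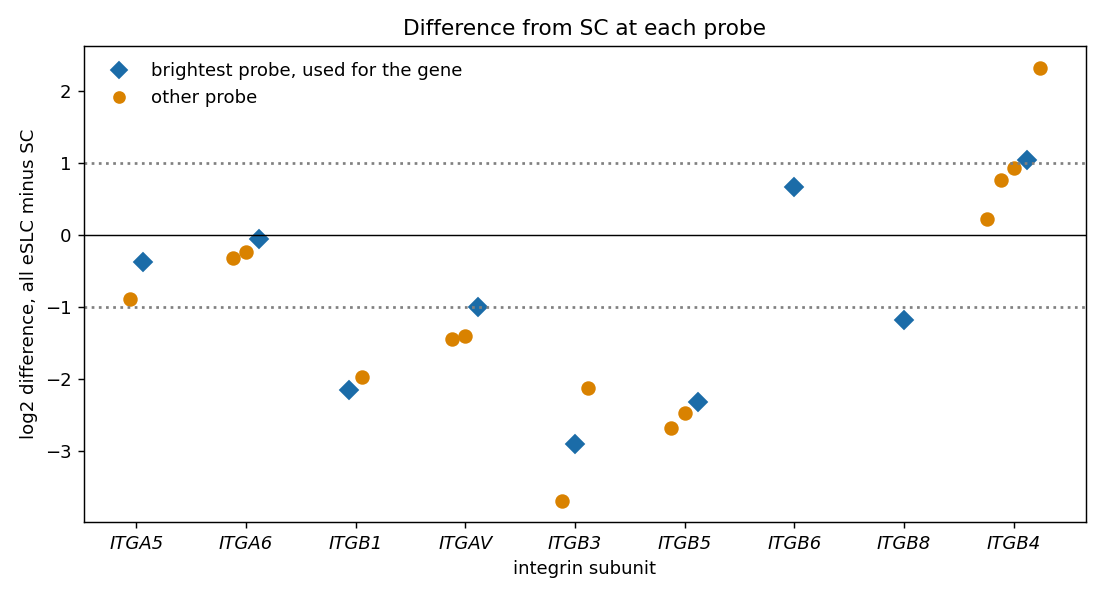
Log2 difference between eSLCs (mean of 3 origins) and SC at each probe of the 9 subunits tested. Diamonds mark the brightest probe and circles the others, and dotted lines mark 2-fold. All probes of ITGB1, ITGB3 and ITGB5 lie near or below -2, and those of ITGB4 run from 0.21 to 2.32. Limited by the floor are 2 of the 3 ITGB3 probes, the ITGB6 and ITGB8 probes and the ITGB4 probe at 0.21. At the ITGB6 probe and this ITGB4 probe, only I9 and N2 lie above the floor.

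The 3 largest differences were present within each slide. Slide 1 held I2, I9, N7 and SC P5, and slide 2 held N2, P1, P4 and SC P10. Within slide 1 the mean log2 difference from SC was -2.16 for ITGB1, -2.67 for ITGB3 and -2.52 for ITGB5. Within slide 2 it was -2.16, -3.13 and -2.14. ITGAV differed by -1.24 within slide 1 and by -0.77 within slide 2, and the brightest ITGB4 probe by 0.21 and 1.87. Without I9 and N2 the log2 difference from SC was -2.32 for ITGB1, -2.75 for ITGB3, -2.27 for ITGB5 and -1.22 for ITGAV, and all 4 were called. ITGA6 was then -0.55, short of 2-fold (adjusted p = 0.0380 by limma).

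Next, each origin was set against SC by itself. The 3 comparisons share the SC arrays. Of the 7 subunits measured on all 8 arrays, IVP-eSLCs and NT-eSLCs each had 3 called lower and PA-eSLCs had 4. The background among genes measured on all 8 arrays was 13% lower and 16.8% higher for IVP, 12.4% and 15.1% for NT, and 13.3% and 20% for PA. ITGB1, ITGB3 and ITGB5 were lower in all 3 origins, as were 9.9% of these genes, and no subunit was called higher in any origin, while 12.7% of these genes were higher in all 3. ITGB8 was called lower in each origin as well, but all eSLC arrays were at the floor, which fixes the same fitted value in the 3 origins.

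ITGB1 was 4.99-fold lower in IVP-eSLCs, 3.54-fold lower in NT-eSLCs and 5.07-fold lower in PA-eSLCs. ITGB3 was 5.89-fold lower in IVP-eSLCs, 8.88-fold lower in NT-eSLCs and 7.99-fold lower in PA-eSLCs. ITGB5 was 4.16-fold lower in IVP-eSLCs, 5.06-fold lower in NT-eSLCs and 6.03-fold lower in PA-eSLCs. The highest adjusted p of these 9 differences was 0.00535 by limma. ITGB8 was at least 3.25-fold, 3.05-fold and 2.75-fold higher in SC than in the 3 origins in the same order, and these calls held in 5 of the 8 fits that left out one array. ITGAV was called in PA-eSLCs only, with log2 differences of -0.96 (adjusted p = 0.0797) in IVP, -0.92 (adjusted p = 0.0951) in NT and -1.13 (adjusted p = 0.0470) in PA by limma, and the PA call held in 7 of 23 alternative settings. These 3 values do not show that the origins differ.

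**Figure D3:**
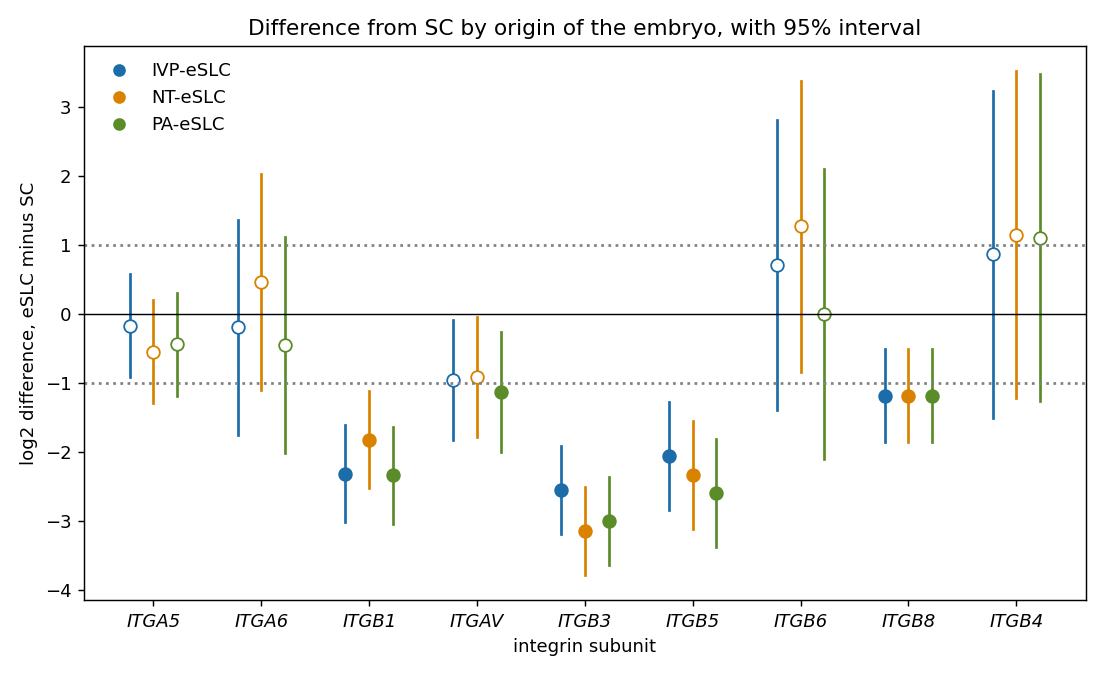
Log2 difference from SC of each subunit in IVP-, NT- and PA-eSLCs (points) with the 95% interval (lines). Filled points were called at an adjusted p under 0.05 and at least 2-fold, and dotted lines mark 2-fold. ITGB1, ITGB3 and ITGB5 lie between -1.82 and -3.15 in all 3 origins, and the intervals of ITGA5, ITGA6, ITGB4 and ITGB6 span 0.

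The difference between origins was tested directly. Of the 9 subunits, 0 were called between NT- and IVP-eSLCs and 0 between PA- and IVP-eSLCs by limma, and 0 had an unadjusted p under 0.05 in either comparison. ITGB8, among the 9, was at the floor in every eSLC line, which fixed its difference at 0. The background was 0% in both. Of the 10956 genes tested, 306 and 568 had an unadjusted p under 0.05 by limma. A share of 0.05 is expected where no gene differs. With 2 lines per origin the intervals were wide for some subunits and narrow for others. The NT minus IVP difference of ITGB4 was 0.28 on the log2 scale with an interval from -2.09 to 2.66, which takes in a 4-fold difference in either direction, and its sign turned without I2 (-0.66) and without N2 (-1.02). That of ITGB5 was -0.28 with an interval from -1.06 to 0.50. For ITGB3 it was -0.59 (-1.23 to 0.04), and for ITGB1 0.49 (-0.21 to 1.20). The PA minus IVP differences were -0.02 for ITGB1 (-0.73 to 0.68), -0.44 for ITGB3 (-1.08 to 0.20) and -0.54 for ITGB5 (-1.32 to 0.24).

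Among the eSLC lines themselves, the range at the brightest probe was widest for the epithelial subunits ITGB4 and ITGB6 and for ITGA6. From the lowest to the highest eSLC line the signal changed 6.07-fold for ITGB4, 5.81-fold for ITGB6 (with values below 13.3 set to it) and 4.33-fold for ITGA6. It changed 2.07-fold for ITGB3, 1.96-fold for ITGB1, 1.85-fold for ITGAV, 1.78-fold for ITGA5 and 1.53-fold for ITGB5, where the median of all genes tested was 1.91-fold. The range depended on the probe, being 1.61-fold and 2.72-fold at the other ITGA6 probes and 3.80-fold and 2.98-fold at the other ITGAV probes. Much of the spread at the brightest probes lay between lines of one origin. For ITGB4 the lines of the pair differed 6.07-fold in NT and 3.70-fold in IVP, and for ITGA6 2.15-fold and 3.52-fold. The PA lines P1 and P4 differed 1.27-fold for ITGB4 and 1.06-fold for ITGA6.

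At the brightest probe, N2 was the highest eSLC line and I9 the next for ITGA6, ITGAV, ITGB6 and ITGB4. These were 4 of the 9 subunits, and I9 and N2 were the top pair in 14% of all genes tested. The 9 include ITGB8, whose 6 lines all lay below 13.3 and have no order. Among the 1564 genes with an eSLC range of at least 4-fold, I9 and N2 were the top pair in 26.6%, and in 3 of 3 subunits. ITGB6, among the 3, entered the test only through the NT-eSLCs, and only I9 and N2 passed 13.3. This entry depended on N2 itself, so ITGB6 does not count as support, here or among the 4 of the 9 subunits. I9 and N2 were also the top pair at both other ITGAV probes, but at one ITGA6 probe P4 (647) and I9 (626) led, with 587 in N2, and at one ITGB4 probe I2 and P1 led. The shared order is a description of 6 lines, and I9 and N2 resembled each other across the whole array.

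**Figure D4:**
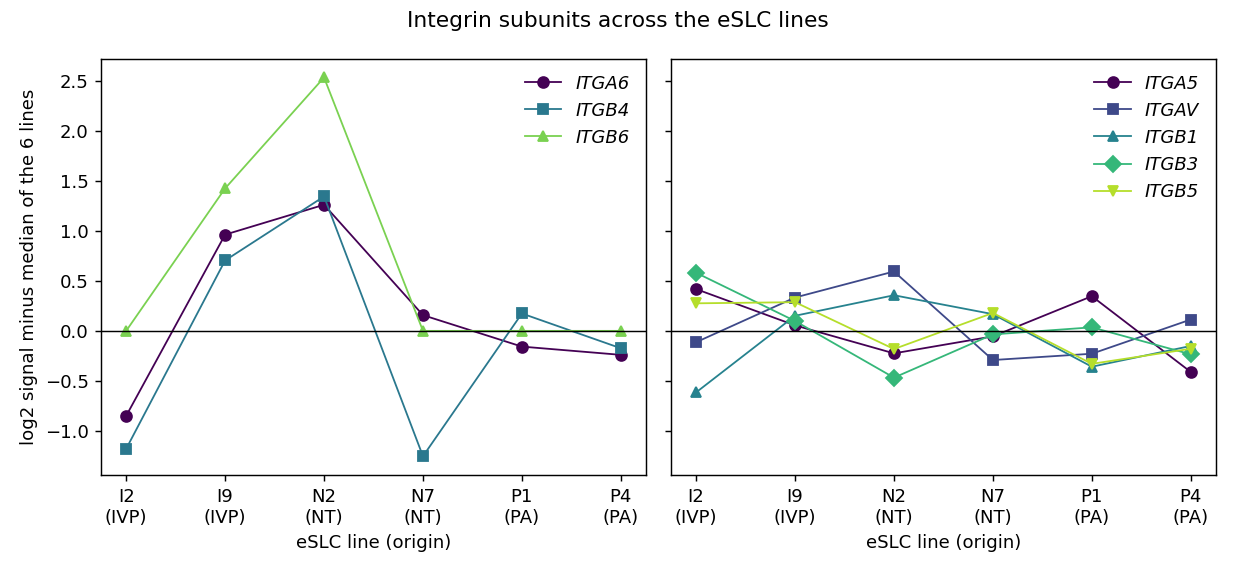
Log2 signal of each subunit in the 6 eSLC lines relative to the median of the lines (values below 13.3 set to it). The left panel shows ITGA6, ITGB4 and ITGB6, with peaks in I9 and N2, and the right panel ITGA5, ITGAV, ITGB1, ITGB3 and ITGB5, which stay closer to the median.

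The remaining integrin genes moved in both directions. Of 16 further subunits, 10 had a probe and 6 were tested, and 3 were called higher and 2 lower in eSLCs. Of all 10956 genes tested, 19.7% were higher and 15.7% lower. ITGB7, a leukocyte beta subunit, rose from 311 and 395 in SC to between 653 and 3480 in eSLCs (log2 difference 2.33, adjusted p = 0.0292 by limma), though its 3 probes ranged from -0.45 to 2.33. ITGA2B, the platelet alpha subunit, rose by 2.07 (0.95 at its other probe) and had its highest value, 717, in P1. ITGA10, a collagen receptor of cartilage, rose by 1.25. ITGA7, a laminin receptor of muscle, fell by 2.82, from 3194 and 2819 in SC to between 282 and 585. ITGA9, which binds tenascin and osteopontin, fell by 3.48 (-1.64 at its other probe). ITGB2, the main leukocyte beta subunit, read 780 and 1030 in SC and from 1475 in N7 to 17928 in I9, with 13090 in N2. It did not pass the test (2.46, adjusted p = 0.105 by limma) and was singled out after its values were seen.

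Inside the cell, integrin tails are tied to actin by adaptor proteins. Of 42 activators and adaptors, 36 had a probe and 35 were tested, and 13 were lower and 2 higher in eSLCs, with a median log2 difference of -0.55. Over all genes tested, 15.7% were lower and 19.7% higher, with a median of 0.23. CAV1, among those called lower, was well above background on 4 arrays only. It entered the test only through SC, where it read 77491 and 82014. LIMS2, which links integrins to the kinase ILK, fell by 4.09 (from 15883 and 16499 in SC to between 703 and 2023), though its probes ranged from -4.09 to -0.99. FLNA, the actin crosslinker that binds beta tails, fell by 2.88, and PARVA, a partner of ILK, fell by 2.72. PTK2B, a relative of focal adhesion kinase, rose by 2.94, from 151 and 85.2 in SC to between 427 and 1686, with probes from 0.90 to 2.94. The other gene called higher was SRC, the kinase that acts with it, which read 43.95 to 77.3 in eSLCs, with both SC arrays below 13.3, so that the fitted 2.27 is a lower limit.

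Most of the ligands tested were lower in eSLCs. Of 19 genes for RGD ligands and latent TGF-beta, 17 had a probe and 11 were tested, and 9 were lower and 1 higher in eSLCs, with a median of -4.40. Among all genes tested, 15.7% were lower and 19.7% higher. The median of these ligands is the value of TGFB2, which read 10.2 in I2, below the floor. SPP1 and NID1 also had eSLC lines below the floor, so these sizes are limited by it. THBS1, a matrix protein that also activates TGF-beta, fell by 9.20, from 130826 and 186977 in SC to between 45.2 in I2 and 2036 in N2, with 6 probes from -9.60 to -3.33. MFGE8, a ligand of the ITGAV pairs with ITGB3 and ITGB5, fell by 4.58, and TGFB3 fell by 3.25. Fibronectin itself, the ligand of the ITGA5 and ITGB1 pair, did not pass the test, with FN1 at 39817 and 46751 in SC and from 7318 in I2 to 64259 in N7 (-1.41, adjusted p = 0.0850 by limma). The gene called higher was FGG, a fibrinogen chain, which was not well above background in SC and entered the test only through eSLCs. FBN1, among those called lower, was well above background on 2 arrays only and entered through SC.

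Of 16 laminin and hemidesmosome genes, 8 had a probe and all 8 were tested, with 3 lower, 0 higher and a median of -0.76. The shares over all genes tested were 15.7% lower and 19.7% higher. LAMB2, a laminin chain, fell by 4.07, from 9193 and 11609 in SC to between 331 and 863, with probes from -4.07 to -1.44. ERBIN, which binds ITGB4, fell by 2.18, and LAMC1, the gamma chain of most laminins, fell by 2.02, with probes from -2.27 to -0.17. LAMB3, a chain of the laminin that binds ITGA6 with ITGB4, read 3150 in N2 and 1735 in I9 and at most 578 in the other lines, against 1889 and 686 in SC. It did not pass the test (-0.66, adjusted p = 0.586 by limma) and was named after its values were seen.

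**Figure D5:**
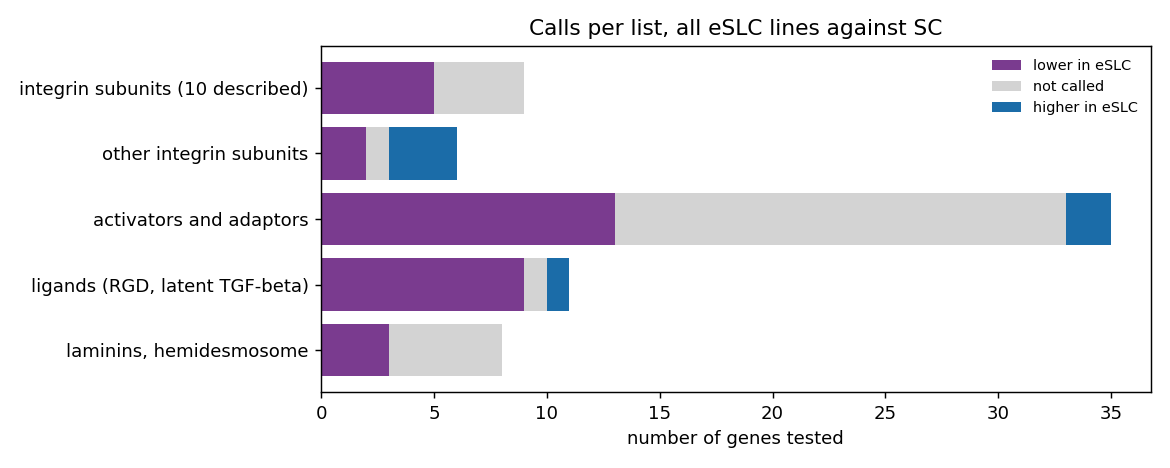
Number of genes of each list called lower, not called and called higher in eSLCs against SC. The 10 subunits described had 5 of 9 tested lower (ITGB8, at the floor in eSLCs, among them), the ligands 9 of 11, and the other integrin subunits 3 higher and 2 lower of 6. Over all genes tested, 15.7% were lower and 19.7% higher.

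Markers of other cells were read on the same arrays. Of 13 trophectoderm markers tested, 11 were higher in eSLCs and 0 lower, and of 12 fibroblast markers 11 were lower and 0 higher. Among all genes tested, 19.7% were higher and 15.7% lower. Of those called, CDX2, ELF5 and PAG2 entered the test only through eSLCs and POSTN only through SC, where they were high. Of 7 keratinocyte markers, 2 were higher, with sums of 23307 to 52432 in eSLCs and 3327 to 6830 in SC, where KRT10 and TP63 were not well above background. KRT15 alone read 21528.5 to 49356.4 in eSLCs and made up most of that sum. KRT5 and KRT14 went the other way, with log2 differences of -2.27 and -0.96, neither called. Of 4 endothelial markers tested, 1 was higher, PECAM1, which entered only through eSLCs. The 6 endothelial markers with a probe summed to 89.8 to 325.3 in eSLCs and 87.1 to 113.7 in SC. CDH5 and EMCN were above background in neither. Of 6 leukocyte and platelet markers, 3 were higher, with sums of 14287 to 35528 in eSLCs and 6428 to 7239 in SC. In eSLCs PTPRC read 9685 to 27266, with probe differences from 0.17 to 2.15, and AIF1 read 1844 to 16252. PF4 was not well above background in eSLCs, nor AIF1 in SC, so AIF1 entered the test only through eSLCs. The part of these markers in the levels of ITGB7, ITGA2B and the other subunits was not tested, nor was that of murine RNA from the feeder cells.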

How the data were processed

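The deposited files held one-colour spot intensities of 8 Agilent bovine arrays, read by the authors with Feature Extraction 11.5.1.1, and the authors normalized them in GeneSpring GX. The authors' table of normalized intensities served as an alternative. Control spots and outlier spots were left out, and spots of one probe were averaged (43653 probes). Probes were named through unversioned RefSeq accessions, 26743 of them with a gene. Background-subtracted intensities were scaled to a 75th percentile of 1000 on each array and floored at 13.3, and their log2 was tested. Each gene was read by its brightest probe, and a gene entered the test when both arrays of 1 or more conditions measured it well above background. One limma 3.58.1 fit in R 4.3.3 held all 8 arrays (2 per origin and 2 SC, 4 residual degrees of freedom). Benjamini-Hochberg adjustment ran over all 10956 genes. The step was tested on simulated data.

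The subunits and lists were chosen with earlier results of these data known. Named were all 10 subunits on every array, and of each other list up to 3 genes with the largest rise and 3 with the largest fall among those called in eSLCs against SC, with arrays that do not overlap and none at the floor. Of the marker lists, counts and summed levels are given, with some single markers named beside them. Some genes named in the text, among them SRC, FN1, FGG, FBN1, CAV1, TGFB2, ITGB2 and LAMB3, fall outside the naming rule. Alternatives were other backgrounds, scalings, filters, floors, probe rules, sample sets, the slide as a block, the t-test of the methods and leaving out each array. Arrays carry no sequencing depth, and their number limits the precision. Probe sequences and positions were not used here.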

Additional observations from a re-analysis of the deposited data

How the results depend on the processing

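ITGB1, ITGB3 and ITGB5 were called lower in eSLCs in 22 of 23 alternative settings each, the exception being the scanner's processed signal, and in 8 of 8 fits that left out one array. ITGAV was called in 12 of 23 and ITGB8 in 17 of 22. The processed signal did not follow the background-subtracted signal in 6 of the arrays (Spearman 0.159 to 0.215, against 0.971 and 0.973 in N2 and I2). With it 0 subunits were called in each comparison with SC and in all 3 origins, and these log2 differences changed sign: ITGA5 2.16, ITGA6 1.87, ITGB1 2.09 and ITGB5 0.44 in all eSLCs, ITGB1 3.11 and ITGB5 0.33 in IVP, ITGB1 3.17 in NT, and ITGB5 1.06 and ITGB8 0.96 in PA. ITGA6 also changed sign with the authors' table (0.061), without I2 (0.24) and without N7 (0.12), and ran from -0.36 to 0.24 over the fits without one array. The normexp background, run on the median signal, gave 3 subunits in all eSLCs and 3 in PA. The authors' table gave 3 in all eSLCs, 2 in IVP, 2 in NT, 3 in PA and 1 in all 3 origins. PA had 3 with the floor doubled and 3 with the slide as a block. The methods' t-test, after Benjamini-Hochberg adjustment, gave 0 in IVP, 0 in NT, 2 in PA and 0 in all 3 origins. Leaving out one array gave 3 to 5 subunits in all eSLCs and 3 to 5 in PA (5 in each with all arrays), with 3 in both without SC P5 and 3 in PA without P1 or without P4. The cause of these changes was not tested. The differences between origins, none of them called, changed sign too: NT minus IVP of ITGB4 (-0.21 with the slide as a block, -0.66 without I2, -1.02 without N2) and of ITGB5 (0.023 with the slide as a block), and PA minus IVP of ITGB1 (0.029 scaled to the median, 0.36 without I9, 0.081 without P1), ITGB3 (2.62 processed, 0.060 normexp) and ITGB5 (0.73 processed, 0.076 with the slide as a block). Over the fits without one array, NT minus IVP of ITGB4 ran from -1.02 to 1.58 and PA minus IVP of ITGB1 from -0.41 to 0.36. Values in the alternative settings were counted over all 54 differences of single subunits in 6 comparisons, with a value of 0 taken as no change of sign. Of them, 1097 kept their call, or lack of one, without changing sign, and 76 lost the call without changing sign. A call was gained by 2, and 55 changed sign, 48 of these of differences not called. With the processed signal ITGA5 read 3.605 and ITGA6 2.48 in IVP, and ITGA5 2.87 in NT. ITGB6 and ITGB8 gave no value where all 8 arrays had to be well above background. Reading each other probe and leaving out I9 and N2 were choices made after seeing the data, and the latter left 5 subunits lower in all eSLCs but turned NT minus IVP of ITGB4 to -0.074 and PA minus IVP of ITGB1 to 0.36. Another probe gave -1.29 for NT minus IVP of ITGB4. The median of all genes was 0.23 on the log2 scale, 0.12 with quantile normalization and 0.056 with the authors' table. No paired analysis was possible because the labels number no samples across groups. ITGA2, ITGB6 and ITGB8 lay near background, where differences are limits.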
